A study of Mus musculus with 6 samples.

Results

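The genes described here are 10 enzymes and regulators of hepatic de novo lipogenesis, chosen by name: *Srebf1*, *Mlxipl*, *Thrsp*, *Acly*, *Me1*, *Acaca*, *Acacb*, *Fasn*, *Scd1* and *Pnpla3*. All 10 were among the 25403 genes of the count table, each as a single row used here, and all 10 were among the 14496 genes with enough counts to be tested. Bulk poly(A) RNA-seq was performed on livers of 3 WT C57BL6/J mice and 3 *Themis*-KO mice. In the KO mice *Themis*, an adaptor protein best known from T cell receptor signaling, was deleted in the whole body and not in hepatocytes alone. All mice, WT included, started a MASH diet at 10 to 12 weeks of age and received it for 3 months, in which fat gave 40% and fructose 20% of the calories and cholesterol was added at 2%, a regimen that produces metabolic dysfunction–associated steatohepatitis. There was no chow-fed group, and the comparison asks how the genotypes differed on this diet. The sex of each mouse is not in the sample labels. The paper describes the WT and *Themis*-KO mice of its MASH diet experiment as male. Its methods also state that livers of both sexes were used for gene expression analysis.

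De novo lipogenesis turns surplus carbohydrate into fatty acids. Citrate exported from mitochondria is cleaved to cytosolic acetyl-CoA, which is carboxylated to malonyl-CoA, extended to palmitate with electrons from NADPH, desaturated and stored as triglyceride. In liver the pathway is switched on after feeding by SREBP-1c, which responds to insulin and LXR, and by ChREBP, which responds to sugars. Fructose is an efficient substrate, and dietary cholesterol and polyunsaturated fat act on the SREBP branch.

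The libraries held between 20679642 and 25649767 counts, and the 10 genes took between 2.68% and 3.80% of them in each liver. *Themis* itself did not separate the labels. It was at 8.07, 25.6 and 12.0 CPM (counts scaled to a common library size, with TMM normalization) in the 3 livers labelled WT and at 8.63, 7.74 and 9.97 CPM in the 3 labelled *Themis*-KO, and its log2 fold change of −0.79 (SE 0.38) had an adjusted p of 0.199 in edgeR's quasi-likelihood test. The count covers the whole gene, so it does not show whether the deleted exons were missing, and the groups below are those of the labels. The livers also stood apart in ways that the labels do not give. *Gm28438* took 96.6% and 96.8% of the counts of the pair *Gm28438* and the mitochondrial gene *mt-Nd3* in WT replicates 1 and 2. It took between 2.20% and 3.26% in WT replicate 3 and all 3 *Themis*-KO livers. This split is called the mitochondrial type below, a name that rests on this pair of genes alone. Among the *Themis*-KO libraries, replicates 1 and 2 differed from each other by a chi-square per degree of freedom of 9.80, and replicate 3 differed from them by 41.0 and 42.3. The 3 pairs of WT libraries differed by 27.6, 28.4 and 36.15, so that *Themis*-KO replicates 1 and 2 were the closest pair within a genotype. Pairs across the genotypes were not compared.

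None of the 10 lipogenesis genes differed between the genotypes at an adjusted p of 0.05. Across all genes tested, 600 (4.14%) were lower and 721 (4.97%) were higher in the *Themis*-KO livers, 9.11% in either direction, by the same edgeR test, with p-values adjusted by the Benjamini-Hochberg method. DESeq2 also called 0 of the 10, against 2369 of the 14496 genes tested. At an unadjusted p under 0.05 there was 1, *Mlxipl*, in either tool, against 4449 of the 14496 genes tested in edgeR. The log2 fold change (*Themis*-KO over WT) was negative for 6 members and positive for 4 (negative for 4 under scaling by total counts alone), with a median of −0.07, beside 0.01 over all genes tested. *Mlxipl* was also the only member whose 3 *Themis*-KO livers all lay on the same side of the 3 WT livers. Over all genes, 16.9% lay lower in this way and 17.7% higher. What set several of these genes apart was the spread among the *Themis*-KO livers, with *Themis*-KO replicate 3 far above the other two for *Thrsp*, *Fasn*, *Acly*, *Srebf1* and *Pnpla3*.

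**Figure D1:**
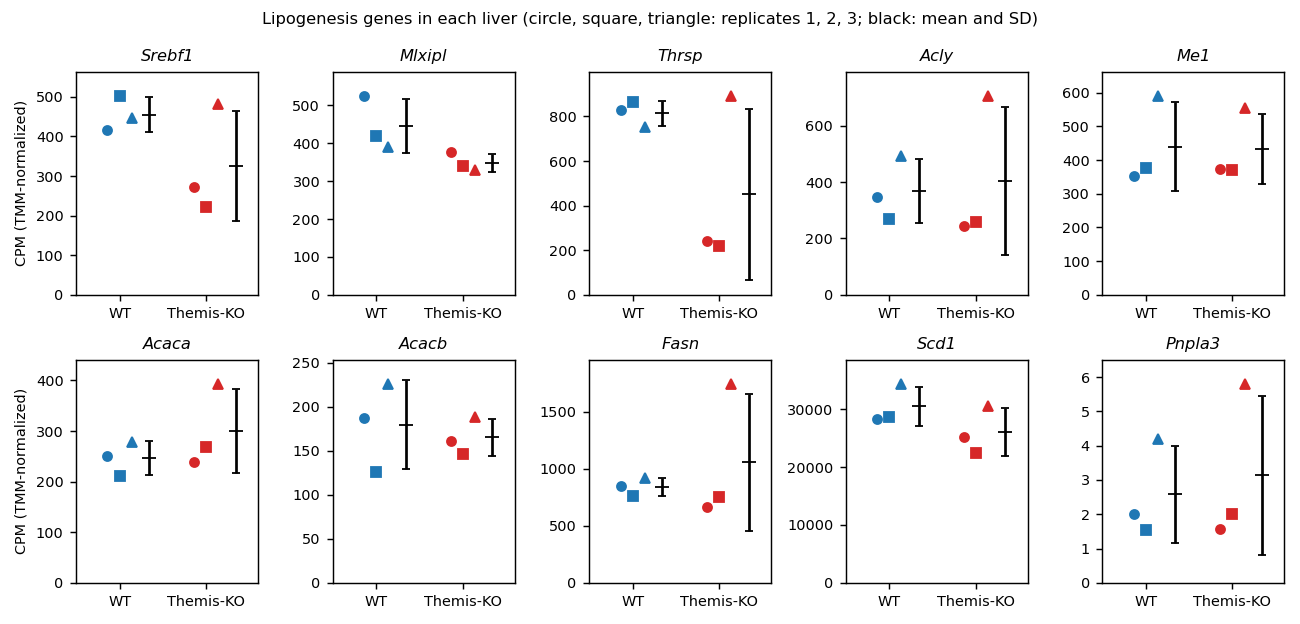
Each panel plots the CPM of a lipogenesis gene in each liver on a linear axis from 0, with WT in blue and *Themis*-KO in red, circles, squares and triangles for replicates 1, 2 and 3, and the mean and SD in black. The red triangle lies above the other 2 red points in every panel except that of *Mlxipl*.

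The proximal promoters of 3 members are shown with matches to 3 short motifs. They are those of *Fasn* and *Acly*, which were both highest in replicate 3 of each group, and *Mlxipl*, the member without overlap. The sequences are from RefSeq on GRCm38.p6, 250 bases up to the base before the transcription start, on the strand of the gene. *Fasn* is at chr11:120824548-120824797 on the minus strand, *Acly* at chr11:100528001-100528250 on the minus strand, and *Mlxipl* at chr5:135089640-135089889 on the plus strand. Capitals mark matches, on either strand, to TCANNCCAC (the core of a sterol regulatory element, bound by SREBP), CACGTG (an E-box) and CCAAT (bound by NF-Y, which reads ATTGG on the other strand).
Fasn: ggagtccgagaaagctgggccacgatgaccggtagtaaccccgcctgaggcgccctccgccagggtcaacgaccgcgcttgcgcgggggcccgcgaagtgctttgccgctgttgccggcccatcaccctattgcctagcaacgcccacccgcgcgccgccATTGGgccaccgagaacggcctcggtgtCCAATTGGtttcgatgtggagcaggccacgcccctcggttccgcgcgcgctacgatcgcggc
Acly: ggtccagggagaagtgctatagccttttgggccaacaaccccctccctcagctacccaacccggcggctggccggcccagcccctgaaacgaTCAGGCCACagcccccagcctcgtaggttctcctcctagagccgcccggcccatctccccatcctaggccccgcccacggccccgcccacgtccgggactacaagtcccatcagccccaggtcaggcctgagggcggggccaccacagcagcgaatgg
Mlxipl: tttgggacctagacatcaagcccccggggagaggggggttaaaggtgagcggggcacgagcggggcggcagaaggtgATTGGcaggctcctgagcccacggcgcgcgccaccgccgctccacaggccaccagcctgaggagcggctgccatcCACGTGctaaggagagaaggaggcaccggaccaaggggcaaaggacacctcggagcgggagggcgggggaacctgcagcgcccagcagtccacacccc
The *Fasn* window held 3 CCAAT boxes, of which 2 on opposite strands overlap, and no sterol element core. The *Acly* window held 1 sterol element core, and the *Mlxipl* window held 1 E-box and 1 CCAAT box. A second *Mlxipl* promoter, at chr5:135106641-135106890 and not shown, held 1 sterol element core and no E-box. Entries were found for 9 of the 10 members, 13 promoters in all, with none for *Scd1*. The sterol element core was in 3 of these 13, against 3.52% of 32851 promoters, the E-box in 1, against 6.02%, and the CCAAT box in 8, against 33.8%. A match gives letters only and was not tested for binding. Other forms of these elements, and sites outside the 250 bases, were not searched for.

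The regulators include the genes of SREBP-1, ChREBP and the lipogenic protein Spot 14. *Mlxipl*, on chr5:135089890-135138382, encodes ChREBP, the carbohydrate-responsive factor that drives glycolytic and lipogenic genes. Its level was 525, 420 and 391 CPM in the WT livers and 376, 341 and 330 CPM in the *Themis*-KO livers. The highest *Themis*-KO liver thus lay just below the lowest WT liver. The log2 fold change was −0.35 (SE 0.13, 95% interval −0.65 to −0.06), with an adjusted p of 0.110 in edgeR. *Mlxipl* was the member with the narrowest spread among the *Themis*-KO livers, with the highest 1.14 times the lowest. It was called in none of the 15 alternative analyses, where its log2 fold change ranged from −0.44 to −0.16. With WT replicate 3 as the only WT liver of the shared mitochondrial type, it was −0.18, a fit in which that lone liver is assumed to vary like the *Themis*-KO livers. The summed CPM of 12 hepatocyte markers was between 66321 and 76072 in the WT livers and between 57498 and 58990 in the *Themis*-KO livers. *Alb*, the most abundant of them, weighed most in these sums. Of the 12, 11 had a negative log2 fold change, 2 of which were called, and 1 had a positive one. The part of hepatocyte content in the level of *Mlxipl* was not tested. In bulk liver, fewer hepatocytes and less RNA of a gene per hepatocyte cannot be told apart.

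*Srebf1*, on chr11:60199089-60222581, encodes SREBP-1, the insulin-responsive activator of fatty acid synthesis. The gene-level count does not separate its isoforms 1a and 1c. *Srebf1* was at 416, 503 and 446 CPM in the WT livers and at 273, 221 and 482 CPM in the *Themis*-KO livers. *Themis*-KO replicates 1 and 2 lay below every WT liver, and replicate 3 lay within the WT range. With all 6 livers the log2 fold change was −0.48 (SE 0.26, 95% interval −1.09 to 0.13), with an adjusted p of 0.249 in edgeR.

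*Thrsp*, on chr7:97412938-97417730, encodes Spot 14, a thyroid hormone- and carbohydrate-responsive protein that promotes fatty acid synthesis. It had the widest spread of the 10 genes among the *Themis*-KO livers and a narrow one among the WT livers. The WT livers were at 828, 863 and 751 CPM, and the *Themis*-KO livers at 243, 217 and 892 CPM. The highest *Themis*-KO liver was 4.11 times the lowest, against 1.15 times in WT. *Themis*-KO replicate 3 was the highest of all 6 livers, whereas replicates 1 and 2 were the lowest. The log2 fold change was −0.85 (SE 0.50), with a 95% interval of −2.00 to 0.30 and an adjusted p of 0.278 in edgeR.

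These results rested on 1 liver. When *Themis*-KO replicate 3 was left out, *Thrsp* had a log2 fold change of −1.84 with an adjusted p of 0.00104, and *Srebf1* one of −0.90 with an adjusted p of 0.00435, both in edgeR. These were the 2 members called, both lower. In that comparison 13.8% of all genes tested were lower and 15% were higher, 4267 genes in all against 1321 with the liver included. *Mlxipl*, by contrast, remained at −0.33 and was not called. When any other liver was left out, 0 of the 10 genes were called.

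The enzymes that supply acetyl-CoA and NADPH came next in the pathway. *Acly*, on chr11:100476353-100528000, encodes ATP citrate lyase, which makes cytosolic acetyl-CoA. The WT livers were at 347, 270 and 494 CPM and the *Themis*-KO livers at 245, 259 and 707 CPM, so replicate 3 was the highest of each group. The log2 fold change was 0.12 (SE 0.42, 95% interval −0.84 to 1.09; adjusted p = 0.859, edgeR). Without *Themis*-KO replicate 3 it was −0.57. *Me1*, on chr9:86581371-86695953, encodes the cytosolic malic enzyme, a source of NADPH. It was at 353, 376 and 591 CPM in WT and at 374, 370 and 555 CPM in *Themis*-KO livers, with nearly equal means. Its log2 fold change was −0.02 (SE 0.23, 95% interval −0.56 to 0.52; adjusted p = 0.956, edgeR). An interval of this width does not show that the level was the same. Under scaling by total counts alone the sign turned, to 0.10.

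The acetyl-CoA carboxylases make malonyl-CoA, *Acaca* for fatty acid synthesis in the cytosol and *Acacb* at the mitochondrial surface, where malonyl-CoA restrains fatty acid oxidation. *Acaca*, on chr11:84129672-84401651, was at 250, 211 and 278 CPM in the WT livers and at 238, 268 and 393 CPM in the *Themis*-KO livers. The ranges overlapped, and the log2 fold change of 0.28 (SE 0.19, 95% interval −0.17 to 0.73) had an adjusted p of 0.351 in edgeR. *Acacb*, on chr5:114146535-114250761, was at 187, 126 and 226 CPM in WT and at 161, 147 and 188 CPM in *Themis*-KO livers. The *Themis*-KO values all lay within the WT range. Its log2 fold change was −0.12 (SE 0.20, 95% interval −0.59 to 0.35; adjusted p = 0.713, edgeR), and under scaling by total counts alone it was 0.0085.

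*Fasn* and *Scd1* complete the synthesis of monounsaturated fatty acids. *Fasn*, on chr11:120805846-120824547, encodes fatty acid synthase, which builds palmitate. It was at 847, 758 and 915 CPM in the WT livers and at 668, 752 and 1746 CPM in the *Themis*-KO livers. Replicates 1 and 2 of the *Themis*-KO group lay below every WT liver, and replicate 3 lay above every WT liver. The log2 fold change was therefore positive with all livers, 0.33 (SE 0.34, 95% interval −0.45 to 1.11; adjusted p = 0.534, edgeR), and negative without that liver, −0.26.

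*Scd1*, on chr19:44394455-44407879, encodes the main hepatic stearoyl-CoA desaturase, which makes oleate and palmitoleate. It was by far the most abundant member, with 28310, 28736 and 34411 CPM in the WT livers and 25199, 22453 and 30543 CPM in the *Themis*-KO livers. Between 2.40% and 3.40% of all counts of a liver came from this gene. *Themis*-KO replicate 3 lay within the WT range, and replicates 1 and 2 lay below it. The log2 fold change was −0.23 (SE 0.16, 95% interval −0.59 to 0.14; adjusted p = 0.358, edgeR). *Pnpla3*, on chr15:84167837-84187236, encodes a lipid droplet protein that remodels triglycerides and is a target of SREBP-1. It was the least abundant member, with 32 to 123 counts in a liver, at 2.02, 1.54 and 4.18 CPM in WT and 1.57, 2.02 and 5.81 CPM in *Themis*-KO livers. Its log2 fold change was 0.26 (SE 0.55, 95% interval −1.02 to 1.53; adjusted p = 0.778, edgeR).

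**Figure D2:**
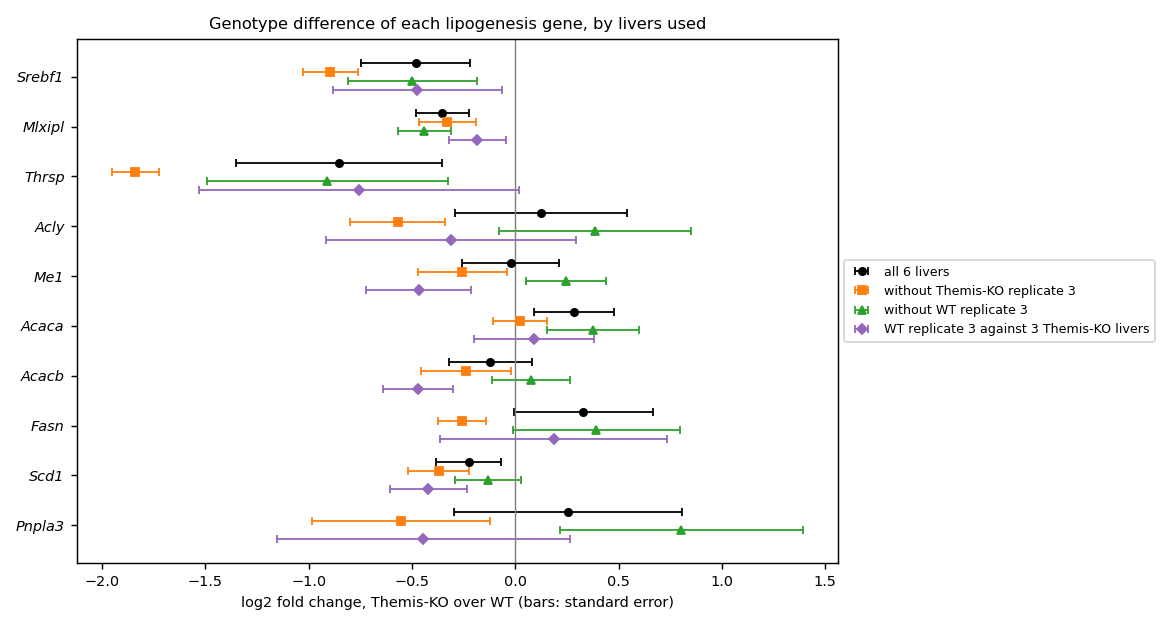
Points give the log2 fold change (*Themis*-KO over WT) of each lipogenesis gene and bars its standard error, with all 6 livers (black), without *Themis*-KO replicate 3 (orange), without WT replicate 3 (green) and with WT replicate 3 as the only WT liver (purple). Without *Themis*-KO replicate 3, *Thrsp* moved from −0.85 to −1.84 and *Fasn* from 0.33 to −0.26, while *Mlxipl* moved from −0.35 to −0.33.

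Levels of different genes were compared per kilobase of exon. On this scale *Scd1* was at 6232 ± 696 CPM per kb in WT and 5328 ± 841 in *Themis*-KO livers (SD, n = 3 each). *Thrsp* followed at 372 ± 26.2 and 206 ± 175, and *Me1* at 114 ± 34.1 and 113 ± 27.3. *Srebf1*, *Mlxipl*, *Fasn* and *Acly* lay close together, with WT means of 80.7, 80.5, 76.7 and 70.2 CPM per kb, and these neighbours did not differ beyond their spread. *Acacb* (18.7 ± 5.22 in WT) and *Acaca* (14.4 ± 1.96) were lower and overlapped, and *Pnpla3* was at 1.67 ± 0.911 CPM per kb. In *Themis*-KO livers *Fasn* was at 96.4 ± 54.8, *Acly* at 76.5 ± 49.7, *Mlxipl* at 63.0 ± 4.30 and *Srebf1* at 57.8 ± 24.5 CPM per kb, and these did not differ beyond their spread. The order of the means rested on *Themis*-KO replicate 3, since *Acly* lay below *Mlxipl* in replicates 1 and 2.

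The members shared a pattern across livers. They were chosen by name, but with earlier results of these data known. *Themis*-KO replicate 3 was the highest *Themis*-KO liver for 9 of the 10 genes, all but *Mlxipl*, against 41.25% of all genes tested. Replicate 3 was the highest liver of both groups for 7 of the 10, namely *Acly*, *Me1*, *Acaca*, *Acacb*, *Fasn*, *Scd1* and *Pnpla3*, against 9.216% of all genes. The 7 are all the members except the 3 regulators. The highest *Themis*-KO liver exceeded the lowest by more than 2-fold for 5 members, against 10.46% of genes. In WT livers this held for 1 member, *Pnpla3*, against 8.354% of genes. The median of the highest over the lowest liver was 1.33 in WT and 1.92 in *Themis*-KO for the members, and 1.22 and 1.28 over all genes. The members respond to common regulators and are not independent of each other, so these counts are descriptions without a test.

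The genes around the pathway were read in the same way. Of 11 genes of citrate, acetate and NADPH supply, *Themis*-KO replicate 3 was the highest *Themis*-KO liver for all 11, of 12 genes of fructose and glucose entry for 10, and of 22 genes of cholesterol synthesis, which SREBP-2 controls, for 21. Other lists were closer to the 41.25% of all genes, or below it. The count was 9 of 16 for glycerolipid assembly, 8 of 16 for SREBP-1 processing and the LXR axis, 7 of 15 for elongation and desaturation, 4 of 9 for AMPK and malonyl-CoA control and 3 of 12 for insulin signaling. It was 5 of 7 for LXR targets and 9 of 17 for feeding state and clock. The following genes were chosen after their values were seen. *Acss2*, which makes cytosolic acetyl-CoA from acetate, was at 148, 145 and 228 CPM in WT livers and at 79.1, 82.6 and 167 CPM in *Themis*-KO livers. *Gpam*, the first enzyme of glycerolipid synthesis, was at 300.1, 436 and 411 CPM in WT livers and at 256, 217 and 697 CPM in *Themis*-KO livers. In both genes *Themis*-KO replicate 3 lay well above the other *Themis*-KO livers.

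A pair of genes induced in fasting showed the opposite order. *Igfbp1*, whose secreted product is repressed by insulin, was the only one of 17 tested genes of feeding state and clock that passed the test. It was higher in *Themis*-KO livers by 1.81 on the log2 scale (SE 0.45), at an adjusted p of 0.0471 in edgeR. It was not called without WT replicate 1, without WT replicate 2, without *Themis*-KO replicate 1 or without *Themis*-KO replicate 2. Nor was it called with the mitochondrial type as a covariate or the replicate number as a block. Its level was 37.8, 26.4 and 63.8 CPM in WT livers and 195, 188 and 66.2 CPM in *Themis*-KO livers. *Pdk4*, a kinase that spares glucose in fasting and also chosen after its values were seen, was at 13.7, 11.0 and 21.7 CPM in WT and at 149, 85.2 and 17.2 CPM in *Themis*-KO livers. Its log2 fold change was 2.44, with an adjusted p of 0.0596 in edgeR. For both genes *Themis*-KO replicates 1 and 2 lay far above the WT livers, and these were the livers with the lowest *Thrsp* and *Srebf1*. The time of the last meal is not in the sample labels, and the part of feeding state in the members' levels was not tested.

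**Figure D3:**
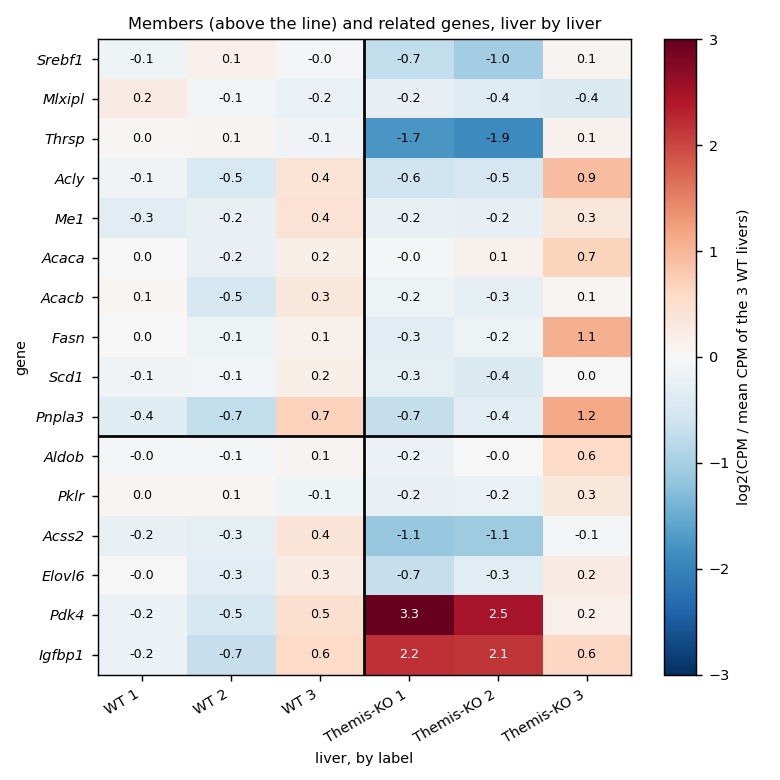
The color and the number in each cell give log2 of the CPM over the mean CPM of the 3 WT livers, with livers in columns, the 10 lipogenesis genes above the horizontal line and 6 related genes below it. *Thrsp* and *Srebf1* are blue and *Pdk4* and *Igfbp1* red in *Themis*-KO replicates 1 and 2, whereas in *Themis*-KO replicate 3 *Fasn*, *Acly* and *Pnpla3* are red.

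The genes called in the neighboring steps of the pathway are given by list and stand beside the 9.11% called over all genes. Of 16 genes of SREBP-1 processing and the LXR axis, 1 fell and 0 rose. This was *Rxra*, the retinoid partner receptor of LXR, at 465, 445 and 433 CPM in WT and 312, 343 and 353 CPM in *Themis*-KO livers, with an adjusted p of 0.0351 in edgeR. Of 7 LXR targets of sterol handling, 2 fell and 1 rose. The sterol exporter genes *Abcg5* and *Abcg8* had log2 fold changes of −0.95 and −0.97 (adjusted p 0.0128 and 0.0146, edgeR), and the cholesterol transporter gene *Abcg1*, which is also expressed in macrophages, one of 0.60 (adjusted p 0.0372). The median log2 fold changes of the 2 lists were −0.02 and −0.21, beside 0.01 over all genes.

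Of 11 genes supplying citrate, acetate and NADPH, 1 fell and 1 rose. *Mdh1*, the cytosolic malate dehydrogenase, fell by 0.54 on the log2 scale (adjusted p 0.0255, edgeR), and *Pgd*, an NADPH-producing enzyme of the pentose phosphate pathway, rose by 0.63 (adjusted p 0.0345, edgeR). Of 12 genes of fructose and glucose entry, 0 were called. The 2 with the smallest p were *Pfkfb1*, a regulator of glycolysis (−0.76, adjusted p 0.0576), and *Slc2a5*, the fructose transporter (−0.97, adjusted p 0.0778), both in edgeR. Of 12 genes of insulin signaling, 0 were called, with *Insr* at −0.26 (adjusted p 0.0860, edgeR) and *Rptor* at −0.19 (adjusted p 0.140, edgeR).

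Downstream of *Fasn* and *Scd1*, 2 of 15 tested genes of elongation and desaturation fell and 2 rose. *Elovl3* was at 76.5, 66.3 and 47.9 CPM in WT and at 24.4, 24.7 and 24.6 CPM in *Themis*-KO livers, a difference of −1.37 on the log2 scale with an adjusted p of 0.0104 in edgeR. *Elovl2*, an elongase of polyunsaturated fatty acids, fell by 0.55 on the log2 scale (adjusted p 0.0466, edgeR), and *Elovl7* rose by 2.43 from a WT mean of 1.11 CPM (adjusted p 0.0194, edgeR). *Scd2*, a paralog of *Scd1*, was at 11.4, 13.9 and 15.5 CPM in WT and at 28.3, 25.3 and 29.3 CPM in *Themis*-KO livers, a log2 fold change of 1.02 with an adjusted p of 0.0123 in edgeR. Reads that fit both *Scd1* and *Scd2* were divided between them by the counting, so the low values of *Scd2* are uncertain. *Scd1* and *Scd2* thus had log2 fold changes of opposite sign, of which that of *Scd2* passed the test.

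Of 16 tested genes of glycerolipid assembly, 1 fell. This was *Acsl1*, a long-chain acyl-CoA synthetase, at 1242, 1305 and 1154 CPM in WT and at 747, 619 and 683 CPM in *Themis*-KO livers, a fall by 0.85 on the log2 scale (SE 0.11; edgeR's adjusted p was 0.0115). Of 9 genes of AMPK and malonyl-CoA control, 1 fell, *Mlycd*, encoding malonyl-CoA decarboxylase, by 0.40 on the log2 scale (adjusted p 0.0322, edgeR). Of 22 genes of cholesterol synthesis, 2 fell, *Tm7sf2* by 0.68 (adjusted p 0.0439, edgeR) and *Ebp* by 0.61 (adjusted p 0.0131, edgeR). A lipogenesis list of 17 genes given by the study, which holds 6 of the members, had 1 gene called lower, *Elovl2*, and 0 higher, with a median log2 fold change of −0.12.

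**Figure D4:**
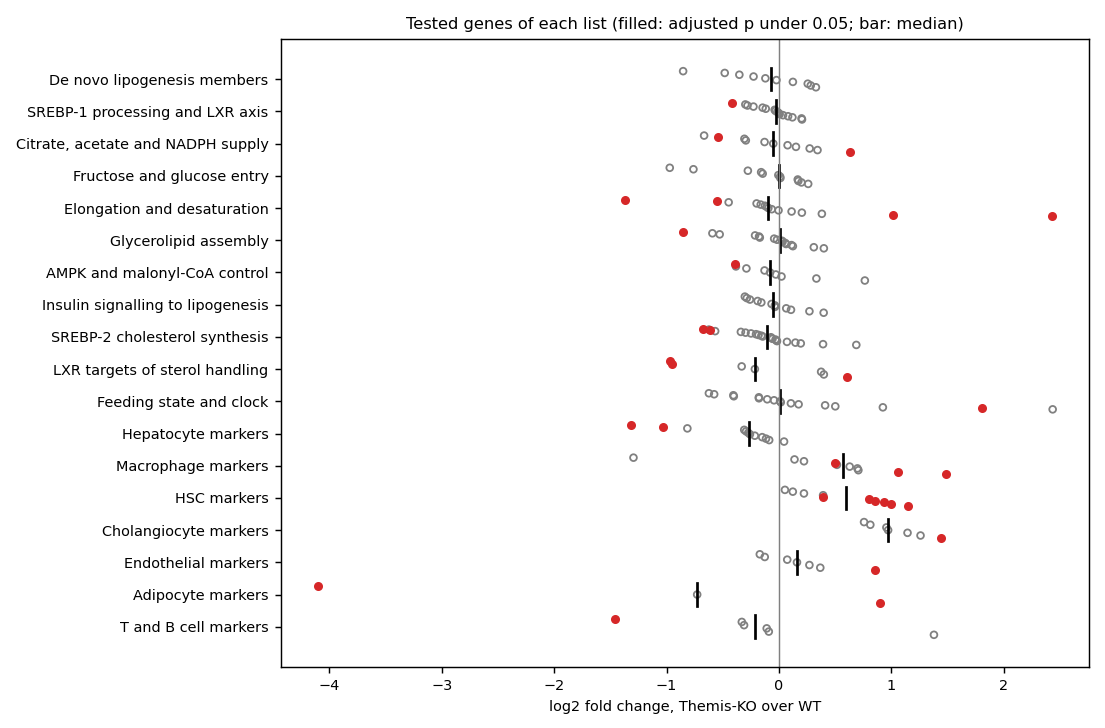
Each point is the log2 fold change (*Themis*-KO over WT) of a tested gene, grouped by list, with filled red points for an adjusted p under 0.05 and a black bar at the median. No point of the lipogenesis members is filled, and their median lies at −0.07.

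Without *Themis*-KO replicate 3 the counts called were larger in each of these pathway lists, as they were over all genes, where 13.8% were lower and 15% higher. There were 11 lower and 0 higher of the genes of cholesterol synthesis, 5 lower and 0 higher of fructose and glucose entry, 4 lower and 1 higher of SREBP-1 processing and the LXR axis, and 5 lower and 2 higher of glycerolipid assembly. With the mitochondrial type as a covariate, 0 genes of these lists and 3 genes overall were called. With the replicate number as a block, 1 gene of elongation and desaturation was called lower and 0 genes of the other pathway lists were called. Without WT replicate 3, *Rxra* and *Elovl2* were not called. Scaling by total counts alone left 0 lower calls in the lists of SREBP-1 processing and of AMPK and malonyl-CoA control, so that *Rxra* and *Mlycd* were not called. *Elovl2* was not called under that scaling or under upper quartile scaling, and under each of these 1 gene of cholesterol synthesis was called in place of 2. Without *Themis*-KO replicate 1, 0 genes of the pathway lists were called, and without WT replicate 1 there was 1, in elongation and desaturation. Without WT replicate 2 there was 1 in that list and 1 in glycerolipid assembly, and without *Themis*-KO replicate 2 there were 1 lower and 1 higher in elongation and desaturation. Over all genes, 44 were called without WT replicate 1, 76 without WT replicate 2, 20 without *Themis*-KO replicate 1 and 68 without *Themis*-KO replicate 2.

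Markers of other liver cells were counted in the same comparison, in which 4.97% of all genes tested were higher and 4.14% lower. Of 10 markers of hepatic stellate cells 6 were higher and 0 lower, of 10 of macrophages 3 were higher and 0 lower, and of 7 of cholangiocytes 1 was higher and 0 lower. The summed CPM of the stellate cell markers was 447 to 511 in WT and 684 to 728 in *Themis*-KO livers, that of macrophage markers 458 to 731 and 723 to 904, and that of cholangiocyte markers 153 to 192 and 386 to 614. Most of the cholangiocyte sum was *Spp1*, at 137 to 180 CPM in WT and 366 to 571 CPM in *Themis*-KO livers. *Spp1* was the only marker of that list called, and all 7 tested had positive log2 fold changes. Endothelial markers summed to 195 to 213 and 219 to 239, with 1 of 7 higher. Of 12 hepatocyte markers, 2 were lower and 0 higher. With the mitochondrial type as a covariate, 0 genes of the marker lists were called. The stellate cell count was 0 without WT replicate 1 or *Themis*-KO replicate 1, and 2 without WT replicate 2 or *Themis*-KO replicate 2. The macrophage count was 0 without any 1 of these 4 livers and 7 without WT replicate 3. In that last fit 850 of 14830 genes tested were called. The endothelial count was 0 without any 1 of the same 4 livers, the cholangiocyte count was 0 without WT replicate 1 or WT replicate 2, and the hepatocyte count was 0 without *Themis*-KO replicate 1. The part of these cells in the members' levels was not tested. Adipocytes, which also express the lipogenic enzymes, left little trace, with 0 to 2 counts of *Adipoq* and 0 to 1 of *Plin1* in every liver. Of the 3 adipocyte-list genes with enough counts, *Cfd* was lower (−4.10, adjusted p 0.0094, edgeR) and *Fabp4*, also a macrophage gene, was higher (0.90, adjusted p 0.0246, edgeR). Of 6 tested T and B cell markers 1, *Cd4*, was lower (−1.46, adjusted p 0.0386, edgeR). *Cfd* was not called without *Themis*-KO replicate 1, *Fabp4* was not called without replicate 1 or 2 of either group, and *Cd4* was not called without WT replicate 3 or without any of those 4 livers.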

How the data were processed

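Libraries of poly(A) RNA from 6 frozen livers were sequenced by the authors, who mapped paired-end reads to GRCm38 with STAR 2.7.8a and estimated reads per gene with RSEM 1.3.3. The submitters' notes also list cutadapt 2.3. The deposited values are these estimated counts, not normalized, 1 per gene and liver, and are whole numbers in the table. RSEM divides reads that fit several genes among them, so paralogs such as *Scd1* and *Scd2* depend on each other. Groups were taken from the sample labels. Nothing in the labels ties livers to litters, and the main fit took the 6 livers as independent. Its p-values rest on the spread between livers, with the spread of each gene drawn toward that of other genes. They would be misstated if livers shared litters or were paired. Counting intervals would cover counting error only.

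In R 4.3.3, genes with low counts were removed with filterByExpr of edgeR 4.0.16, libraries were scaled by TMM, and a model of genotype alone was fitted to the 6 livers by glmQLFit and tested by glmQLFTest. Adjustment was by Benjamini-Hochberg across 14496 genes, and an adjusted p under 0.05 was called. Standard errors came from the fold change and its F statistic. The biological coefficient of variation was 0.157. The study's methods name DESeq2, and DESeq2 1.42.0 was run as an alternative. The others were RLE, upper quartile and total-count scaling, no filter, at least 10 counts in every liver, the replicate block, the mitochondrial type as a covariate or as a restriction, and each liver left out in turn. The fits were tested on simulated counts.

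The members and gene lists were chosen with earlier results of these data known. Named genes were the members, *Themis* and, from each list, every gene called where at most 4 were, otherwise the 4 with the largest change, or the 2 with the smallest p where none was called. Of the marker lists, *Hpd*, *Serpina1c*, *Trem2*, *Cd68*, *Mpeg1*, *Col1a1*, *Col1a2*, *Col3a1*, *Lum* and *Lyve1*, which this rule also names, are given by their lists' counts only. Coordinates and exon lengths are from GENCODE vM21 (GRCm38). Figures were drawn with matplotlib 3.10.9.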

Additional observations from a re-analysis of the deposited data

How the results depend on the processing

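The number of all genes called depended on the alternative. Against 1321 genes, 2179 were called without a filter, 2369 with DESeq2, 62 with the replicate block, 3 with the mitochondrial type as a covariate, 9 within the shared mitochondrial type, and between 20 and 4267 with 1 liver left out. The cause was not tested. Scaling by total counts alone shifted the median log2 fold change of all genes to 0.15 and the share of lower calls from 45.4% to 21.1% (1836 calls). The number of members called lower was between 0 and 2 with 1 liver left out, and 2 only without Themis-KO replicate 3 (Thrsp and Srebf1). It was 0 under every other alternative, and no alternative called a member higher. With the replicate number as a block, 0 members were called, with a smallest adjusted p of 0.158 (edgeR), and *Acly* was at −0.0146. The paper describes the livers as 3 pairs but does not say what formed a pair. Same-numbered livers did not deviate together (correlations of 0.000277, −0.241 and −0.157), and the main fit did not take the numbers as pairs. These correlations cannot show whether the livers were paired.

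Of 150 values of the 10 members under 15 alternatives, 132 kept their direction and their side of the threshold, 2 passed the threshold and 16 changed sign. *Acly* was at −0.29 with the mitochondrial type as a covariate and −0.31 within the shared type, and *Pnpla3* at −0.43 and −0.44. Under total-count scaling *Me1* was at 0.10 and *Acacb* at 0.0085. With 1 liver left out, the log2 fold change ranged from −0.57 to 0.39 for *Acly*, −0.26 to 0.25 for *Me1*, −0.32 to 0.0765 for *Acacb*, −0.26 to 0.57 for *Fasn* and −0.55 to 0.80 for *Pnpla3*. *Pnpla3* had the lowest depth of the members, at 32 to 123 counts in a liver, and its SE of 0.55 was close to the 0.50 of *Thrsp*, which had at least 5051 counts in each liver. The parts of depth and of the spread between livers were not tested.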
